A study of Mus musculus with 6 samples.

Results

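Potassium channel genes were read in GLUTag cells, a mouse line of enteroendocrine origin used as a model of the GLP-1-secreting L-cell. Members were all protein-coding genes of the deposited table whose mouse symbol begins with Kcn, apart from 1 gene of the Kcnj group, and the rule used no measured value. It gave 93 genes among the 54281 genes of the table. Polyadenylated RNA of 6 wells was sequenced from the 3′ end of each transcript, 3 wells on plate 1 at passage 23 and 3 wells on plate 2 at passage 27. All cells were untreated GLUTag cells grown for 48 h on Matrigel in DMEM with 1 g/L glucose and 10% FBS. Plate and passage changed together and cannot be told apart, and as wells of a plate share a passage the spread between them may be technical. No genotype or treatment separates the libraries.

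Total counts lay between 21399987 and 36488198 per library. The chi-square per gene between any pair of libraries was at least 10.9, which shows only that no library repeats another. All 6 were kept. Which plate 2 column belongs to which replicate is not known, so these libraries are called lowest, middle and highest by total count. Over all genes detected, the middle library of plate 2 (called the middle-total library) differed from the other libraries of its plate along the GC content of the transcript end, and several results are therefore also given without it. Its chi-square per gene was 87.27 against the lowest-total and 139.8 against the highest-total library. Between those libraries it was 33.35, and within plate 1 at most 18.85. The enteroendocrine label was met by 10 of 10 markers, with Gcg at 3416 ± 771 CPM (SD, n = 6). Among these markers, Insm1 had 45.1 CPM in the middle-total library against 158.7 to 290.8 CPM in the others, and Scg2 32.1 CPM against 62.4 to 124.3 CPM. Of the markers of other cell types, 3 of 6 were detected for enterocytes, 1 of 5 for goblet and Paneth cells, 1 of 6 for fibroblasts, 0 of 3 for muscle, 2 of 5 for blood and 1 of 6 for neurons and glia. The neuron and glia markers summed to between 1.68 and 2.29 CPM on plate 1 and between 2.78 and 4.38 CPM on plate 2, and the blood markers to between 1.59 and 1.63 CPM and between 1.97 and 3.42 CPM, so that both lists were higher on plate 2 without overlap. Tff3 had 37.8 ± 2.42 CPM and Col1a2 5.87 ± 0.932 CPM (each SD, n = 6), while Fabp2, Apob, Mmp7, Col3a1, Lum and Sox10 had a count of 0 in every library, and Ptprc had at most 4 counts.

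Potassium channels let potassium leave the cell along its gradient, which sets the resting potential and ends each action potential. In electrically active endocrine cells they oppose the calcium entry that drives hormone release. Most have a pore made of 4 subunits or subunit-like repeats and a short selectivity filter, a stretch of the pore loop in which glycine, tyrosine and glycine, or glycine, phenylalanine and glycine, line the path of the ion. The symbol gives the subfamily: Kcna to Kcnd are voltage-gated channels, Kcnf, Kcng, Kcns and Kcnv are silent subunits that form no channel alone and modify Kcnb channels, Kcnh are ether-a-go-go type channels, several Kcnq subunits carry the M-current in neurons, Kcnma, Kcnn, Kcnt and Kcnu are channels opened by intracellular ions or pH, Kcnj are inward rectifiers, Kcnk are leak channels with tandem pores, and Kcnab, Kcne, Kcnip and Kcnmb are accessory subunits. Kcnrg, which encodes a regulator of potassium channels and no pore, is counted with the accessory genes.

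The coding sequence of the selectivity filter is a feature that most pore-forming members share. It was not read to choose the members, but the symbol used for that already gives the channel subfamily. It is shown for a gene of each of several subfamilies. Each line gives 30 coding bases read 5′ to 3′ from a transcript of GENCODE release M21 on GRCm38, with the 15 bases that end in the filter codons in capitals.
Kcnd2: atgacaACACTGGGGTATGGCgacatggta
Kcnh1: ctcaccAGTGTGGGCTTTGGTaacattgcc
Kcnq3: ctggccACCATTGGTTATGGAgacaagaca
Kcnk1: ctctccACCACAGGCTATGGCcacacggtg
Kcnt1: ttctcaACTGTGGGCTTCGGTgatgtgacg
Kcna6: atgaccACGGTAGGTTATGGGgacatgtac
Kcnma1: atgtctACAGTGGGTTATGGGgacgtttat
Kcnj9: gagaccACCATCGGCTATGGGcaccgggtc

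These windows lie in coding exons. That of Kcnh1 is at chr1:192337748-192337777 (plus strand, exon 7 of 11), that of Kcnq3 at chr15:66023722-66023751 (minus strand, exon 6 of 15) and that of Kcnt1 at chr2:25894361-25894390 (plus strand, exon 11 of 32). In Kcnd2 and Kcnk1 an intron interrupts the 30 bases between exons 1 and 2. Counts were whole numbers in every library (within 0.01) for 90 of the 93 members. The other 3, Kcnh7, Kcnn1 and Kcnk4, held fractional counts, and their levels are less certain.

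The filter codons were searched in frame on the coding strand only, in 1 coding sequence per gene, as GGNTANGGN after a threonine codon and any codon for the form with tyrosine, and as GGNTTNGGN after a valine codon for the form with phenylalanine or leucine. At least 1 of these motifs was found in 67 of the 76 members of pore-forming subfamilies and in 0 of the 17 accessory members, against 1.29% of 21732 protein-coding genes, the members included. As the symbol gives the subfamily, these shares describe the subfamilies and are no separate support for the choice of members. The form with tyrosine was found in all members of Kcna, Kcnb, Kcnc, Kcnd, Kcnf, Kcng, Kcnq, Kcns and Kcnv, and in Kcnma1. The second form was found in 7 of the 8 Kcnh genes, in both Kcnt genes, in Kcnu1 and, beside the first, in 2 of the 14 Kcnk genes, and the windows of Kcnh1 and Kcnt1 above show it with the codons TTT and TTC. A match describes these letters only, and the absence of one, as in Kcnk2, says only that these letters are not in the coding sequence.

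Levels are in CPM, the count of a gene scaled to the summed counts of its library. Since each transcript gives reads from its 3′ end only, CPM stands for transcripts and was not divided by length. More than 3 counts in every library, the limit that a count of 0 allows, was found for 48 of the 93 genes (51.6%), against 58.4% of 21805 protein-coding genes. A count of 0 in all 6 libraries was found for 13 of the 93 members, against 21.1% of protein-coding genes, and the other 32 lay between. The detected members were low in level, with a median of 2.02 CPM against 19.2 CPM for detected protein-coding genes. A mean of at least 5 CPM was reached by 21 members and a mean of at least 10 CPM by 12.

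The members summed to 325 ± 56.7 CPM (SD, n = 6). The 21 genes with at least 5 CPM held 88.3% of this sum and the 10 highest held 62.2%. By library the sum was 273.7, 266.1 and 281.3 CPM on plate 1 (replicates 1, 2 and 3) and 370.6, 387.9 and 370.4 CPM on plate 2 (lowest, middle and highest total), so that the plates did not overlap. Scaling by TMM, which aligns the bulk of genes between libraries, narrowed the gap to between 298.8 and 301.6 on plate 1 and between 332.5 and 359.7 on plate 2. Over the 15669 genes tested, the median log2 difference between plate 2 and plate 1 was itself 0.30 without scaling beyond the total and 0.03 under TMM. The mitochondrial share of counts was between 3.98% and 4.85% on plate 1 and between 4.62% and 7.27% on plate 2. The part of this share, which overlapped between the plates, and of the blood, neuron and glia marker sums, which did not, in the plate difference was not tested. The pore genes of calcium channels (Cacna1, 7 of 10 genes detected) summed to 117 ± 26.3 CPM and those of sodium channels (Scn, 6 of 10 detected) to 104 ± 11.4 CPM (each SD, n = 6), but these families hold fewer genes.

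**Figure D1:**
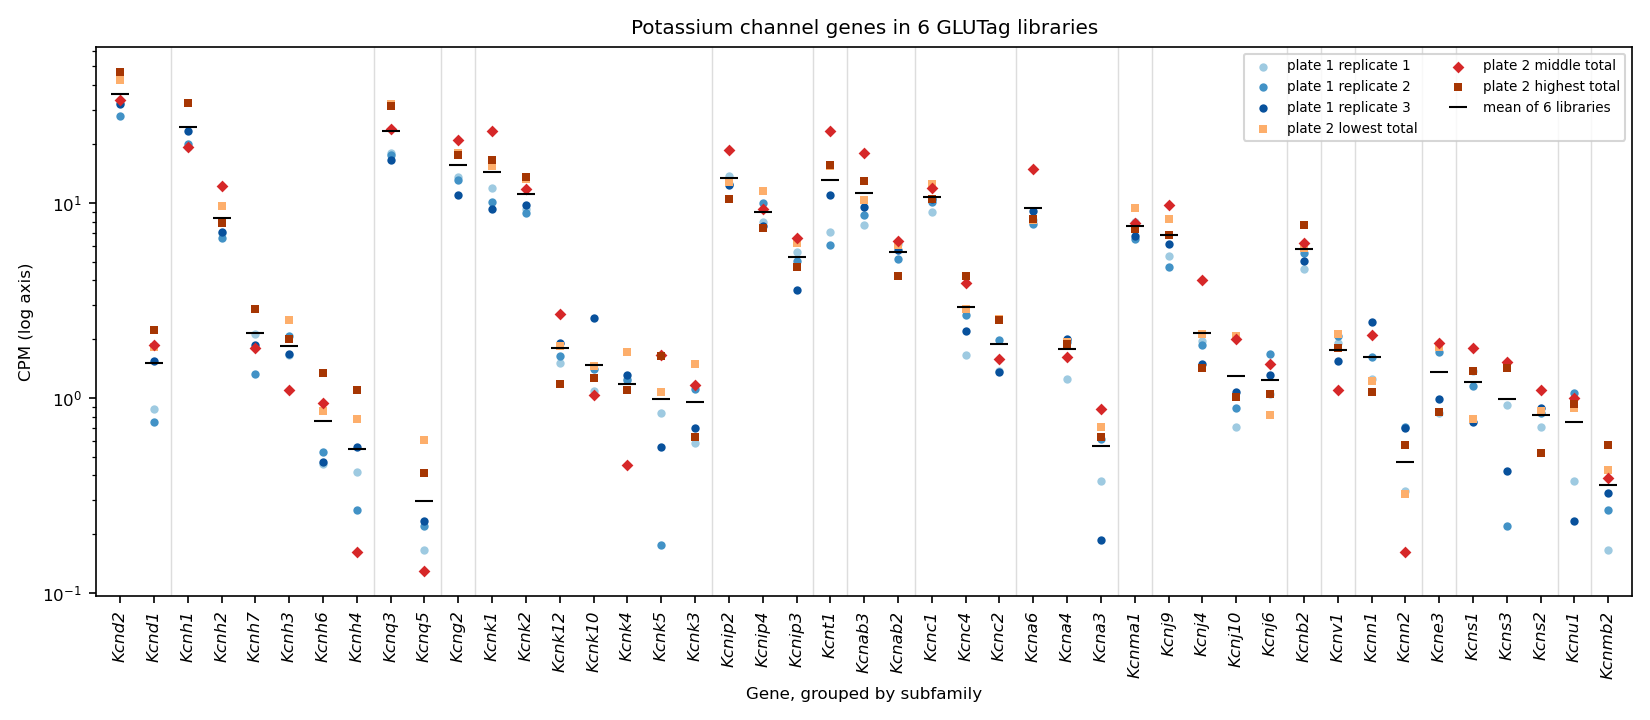
CPM on a log axis of 45 potassium channel genes with more than 3 counts in every library, grouped by subfamily, with 1 point per library and a bar at the mean. Kcnd2 stands highest, with a mean of 35.9 CPM, and 18 of the genes shown have a mean of at least 5 CPM.

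Kcnd2, which forms the rapidly inactivating A-type channel (ENSMUSG00000060882, chromosome 6, 21215503 to 21729805), was the highest member. It had 32.4, 28.0 and 32.2 CPM on plate 1 and 42.5, 33.7 and 46.9 CPM on plate 2, or 35.9 ± 7.17 CPM (SD, n = 6), from 634 to 1710 counts. The highest and lowest totals of plate 2 gave its highest values, and the middle-total library lay just above plate 1. The plates thus did not overlap in CPM. With TMM scaling the log2 fold change of Kcnd2 between plate 2 and plate 1 was 0.14 ± 0.15 (standard error, adjusted p = 0.692 from edgeR). Kcnd1 of the same subfamily had 1.51 ± 0.585 CPM (SD, n = 6), and Kcnd3 was not detected in every library. Within a library Kcnd2 exceeded Kcnd1 by 3.89 ± 0.21 (SD) on the log2 scale of CPM + 1, in 6 of 6 libraries (exact two-sided sign-flip permutation p = 0.03125, the smallest that 6 libraries allow, adjusted p = 0.0417 over 12 subfamilies). Here and in the subfamilies below, the genes compared were ranked on these same values, which favours this direction. The test also does not take into account that wells of a plate share a culture.

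The accessory subunits of A-type channels were detected as well. Kcnip2, Kcnip4 and Kcnip3 encode calcium-binding proteins that join Kcnd channels, and Kcnip3 is also known as a transcriptional repressor. Kcnip2 had 13.8, 12.5 and 12.4 CPM on plate 1 and 12.7, 18.6 and 10.4 CPM on plate 2, with the middle-total library highest and the plates overlapping. Kcnip4 had 8.95 ± 1.60 CPM and Kcnip3 5.29 ± 1.12 CPM (each SD, n = 6), while Kcnip1 was not detected in every library. Kcnip2 was above Kcnip4 in 6 of 6 libraries by 0.53 ± 0.29 (SD) on the log2 scale (exact permutation p = 0.03125 and adjusted p = 0.0417), or by 0.45 without the middle-total library. Kcnip4, like Kcnd2, Kcng2, Kcnk2, Kcnb2, Kcnab2 and Kcnip3 and 12 of the 48 detected members in all, overlaps other annotated genes of its own strand. Outside the Kcn genes, Dpp6, another partner of Kcnd channels, had 16.9 ± 4.36 CPM and Dpp10 0.862 ± 0.474 CPM (each SD, n = 6).

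Of the Kcnb subfamily, which carries the delayed rectifier current of many endocrine cells, Kcnb2 had 4.58, 5.52 and 5.05 CPM on plate 1 and 5.84, 6.24 and 7.70 CPM on plate 2, or 5.82 ± 1.09 CPM (SD, n = 6). In CPM, all plate 2 libraries were above all plate 1 libraries. With TMM scaling the log2 fold change of Kcnb2 between plate 2 and plate 1 was 0.12 ± 0.20 (standard error, adjusted p = 0.828 from edgeR). Amigo1, which encodes a membrane partner of Kcnb channels, had 11.1 ± 1.94 CPM (SD, n = 6).

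Among the silent subunits, Kcng2 alone reached 5 CPM. It had 13.6, 13.0 and 10.9 CPM on plate 1 and 17.98, 21.03 and 17.6 CPM on plate 2, or 15.7 ± 3.77 CPM (SD, n = 6). In CPM, each plate 2 library was above each plate 1 library. Under TMM scaling its log2 fold change between plate 2 and plate 1 was 0.32 ± 0.16 (standard error, adjusted p = 0.369 from edgeR). The other Kcng genes were not detected in every library, Kcng3 and Kcng4 with a count of 0 in each library, so that Kcng2 held 99.8% of the sum of its subfamily. Kcnv1 had 1.76 ± 0.388 CPM, Kcns1 1.21 ± 0.404 CPM, Kcns3 0.988 ± 0.562 CPM and Kcns2 0.819 ± 0.193 CPM (each SD, n = 6). Kcnf1 had at most 3 counts in any library. The difference between Kcns1 and Kcns3 was 0.18 ± 0.42 (SD) on the log2 scale, with Kcns1 higher in 4 of 6 libraries, within the spread of the libraries (exact permutation p = 0.375, adjusted p = 0.375). It was 0.47 on plate 1 and -0.11 on plate 2, and over all libraries 0.06 without plate 1 replicate 2 and 0.31 without the lowest-total library of plate 2.

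Kcnc channels open at strongly depolarised potentials and close fast. Kcnc1 had 9.002, 10.1 and 10.5 CPM on plate 1 and 12.5, 11.9 and 10.4 CPM on plate 2, and these levels varied little, with 10.7 ± 1.27 CPM (SD, n = 6). Kcnc4 had 2.91 ± 0.971 CPM and Kcnc2 1.89 ± 0.534 CPM (each SD, n = 6).

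Of the 8 Kcna genes, which encode channels of the Shaker type, 3 were detected. Kcna6 had 8.21, 7.82 and 9.11 CPM on plate 1 and 8.19, 14.8 and 8.25 CPM on plate 2. One library, the middle-total one, thus lay apart from 5 close values, and the mean of 9.40 ± 2.70 CPM (SD, n = 6) became 8.32 CPM without it. Kcna4 had 1.77 ± 0.289 CPM and Kcna3 0.566 ± 0.246 CPM (each SD, n = 6), while Kcna7 and Kcna10 had a count of 0 in each library. Kcna6 exceeded Kcna4 by 1.88 ± 0.38 (SD) on the log2 scale in 6 of 6 libraries (exact permutation p = 0.03125, adjusted p = 0.0417), and by 1.74 without the middle-total library. The beta subunits of these channels are encoded by Kcnab genes. Kcnab3 had 7.71, 8.70 and 9.53 CPM on plate 1 and 10.3, 18.02 and 12.96 CPM on plate 2, and Kcnab2 had 5.61 ± 0.814 CPM (SD, n = 6). Kcnab3 was above Kcnab2 in 6 of 6 libraries, by 0.53 on plate 1 and 1.15 on plate 2 on the log2 scale (mean 0.84 ± 0.45 SD, exact permutation p = 0.03125, adjusted p = 0.0417), and by 0.74 without the middle-total library. The mean of Kcnab3 was 11.2 CPM, or 9.84 CPM without that library. Kcnab3os lies on the opposite strand at Kcnab3, and Nphp4 at Kcnab2. The library kit (QuantSeq FWD) keeps the strand, but the strand setting of the counting is not given in the sources used here, and reads from the opposite strand were not tested for. This holds for 26 of the 48 detected members, which overlap an annotated gene on the opposite strand, Kcnq3, Kcng2, Kcnk1, Kcnk2, Kcnh2, Kcnma1 and Kcnj9 among them. Kcnab1 had 1 count in 1 library.

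Kcnq3 and Kcnq5 encode subunits of the M-channel, which opens near the resting potential and is closed by muscarinic receptors in neurons. Kcnq3 (ENSMUSG00000056258, chromosome 15, 65986387 to 66286642) had 18.05, 17.5 and 16.6 CPM on plate 1 and 32.1, 23.97 and 31.4 CPM on plate 2, or 23.3 ± 7.04 CPM (SD, n = 6). It was higher in each plate 2 library than in any plate 1 library, and within plate 2 the middle-total library was lowest. Kcnq5 was detected at 0.295 ± 0.181 CPM (SD, n = 6). Kcnq1, the subunit of epithelial and cardiac channels, had a count of 0 in all 6 libraries. Ank3, which encodes an anchor of Kcnq channels, had 57.2 ± 2.07 CPM (SD, n = 6).

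Of the 8 Kcnh genes 6 were detected. Kcnh1, the ether-a-go-go channel (ENSMUSG00000058248, chromosome 1, 192190774 to 192510159), had 19.3, 20.02 and 23.3 CPM on plate 1 and 32.4, 19.4 and 32.5 CPM on plate 2. The middle-total library thus fell among the plate 1 values and away from the other libraries of its plate. Kcnh2, the channel of the rapid delayed rectifier current of the heart, had 8.40 ± 2.13 CPM (SD, n = 6), with its highest value, 12.1 CPM, in the middle-total library. Kcnh1 exceeded Kcnh2 in 6 of 6 libraries by 1.43 ± 0.43 (SD) on the log2 scale (exact permutation p = 0.03125 and adjusted p = 0.0417), with 0.64 in the middle-total library as the smallest and 1.59 on average in the other 5. Kcnh7 with 2.14 CPM, Kcnh3 with 1.84 CPM, Kcnh6 with 0.765 CPM and Kcnh4 with 0.547 CPM were lower. Hhat overlaps Kcnh1 on the opposite strand.

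Channels opened by intracellular ions were led by Kcnt1, a sodium-activated channel, and Kcnma1, the large-conductance calcium-activated channel. Kcnt1 (ENSMUSG00000058740, chromosome 2, 25863734 to 25918273) had 7.08, 6.05 and 10.9 CPM on plate 1 and 15.4, 23.5 and 15.6 CPM on plate 2. No member with at least 5 CPM varied more, with a coefficient of variation of 49.4%, and the plates did not overlap. Its mean was 13.1 ± 6.47 CPM (SD, n = 6), or 11.02 CPM without the middle-total library. Kcnma1 had 7.96, 6.495 and 6.73 CPM on plate 1 and 9.44, 7.89 and 7.32 CPM on plate 2, or 7.64 ± 1.06 CPM (SD, n = 6), with the plates overlapping. Its beta subunits were lower. Kcnmb2 had 0.358 ± 0.141 CPM (SD, n = 6), and Kcnmb1, Kcnmb3 and Kcnmb4 were not detected in every library. Of the gamma subunits, Lrrc55 had 4.64 ± 0.561 CPM and Lrrc38 1.69 ± 0.359 CPM (each SD, n = 6), Lrrc26 had at most 1 count and Lrrc52 a count of 0. The small-conductance channels, which open with calcium bound to calmodulin, were low, with Kcnn1 at 1.62 ± 0.548 CPM and Kcnn2 at 0.467 ± 0.227 CPM (each SD, n = 6). Kcnn1 was above Kcnn2 in 6 of 6 libraries by 0.82 ± 0.35 (SD) on the log2 scale (exact permutation p = 0.03125 and adjusted p = 0.0417). Without the middle-total library the difference was 0.71. At these levels the size rests on the 1 CPM added, and it was 1.65 with 0.1 CPM and 0.27 with 5 CPM in its place. Kcnu1 had 0.749 ± 0.352 CPM (SD, n = 6) and Kcnt2 was not detected.

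The tandem-pore genes, which encode leak channels, had 7 of 14 members detected. Kcnk1 had 11.9, 10.1 and 9.35 CPM on plate 1 and 15.4, 23.3 and 16.7 CPM on plate 2, and Kcnk2, a channel opened by stretch and lipids, had 9.29, 8.88 and 9.77 CPM on plate 1 and 13.2, 11.8 and 13.6 CPM on plate 2. In CPM the plates did not overlap for either gene, and the mean of Kcnk1 was 14.4 CPM, or 12.7 CPM without the middle-total library. Under TMM scaling the log2 fold change of Kcnk2 between plate 2 and plate 1 was 0.20 ± 0.14 (standard error, adjusted p = 0.546 from edgeR). Kcnk1 was above Kcnk2 in 5 of 6 libraries by 0.31 ± 0.33 (SD) on the log2 scale, within the spread of the libraries (exact permutation p = 0.0625, adjusted p = 0.075), and by 0.18 without the middle-total library. Kcnk12, Kcnk10, Kcnk4, Kcnk5 and Kcnk3 lay between 0.947 and 1.79 CPM, and Kcnk16 and Kcnk18 had a count of 0 in each library.

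Among the 14 inward rectifier genes studied 4 were detected and 4 had a count of 0. Kcnj9, a subunit of G protein-gated channels, had 5.33, 4.68 and 6.17 CPM on plate 1 and 8.26, 9.70 and 6.82 CPM on plate 2, or 6.83 ± 1.88 CPM (SD, n = 6). Of the other subunits of these channels, Kcnj6 had 1.23 ± 0.321 CPM (SD, n = 6), while Kcnj3 and Kcnj5 were not detected in every library. Kcnj9 exceeded Kcnj4 in 6 of 6 libraries by 1.33 ± 0.30 (SD) on the log2 scale (exact permutation p = 0.03125 and adjusted p = 0.0417). Kcnj4 had 2.15 CPM, or 1.77 CPM without the middle-total library, in which it had 4.04 CPM. Kcnj2, the classical strong rectifier, had 0.667, 1.06 and 0.654 CPM on plate 1 and 0.819, 0.0970 and 2.17 CPM on plate 2. Its 3 counts in the middle-total library, against 79 in the library with the highest total, kept it out of the detected genes. Of the Kcne subunits, Kcne3, a partner of Kcnq1 in epithelia, was detected at 1.35 ± 0.514 CPM (SD, n = 6).

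**Figure D2:**
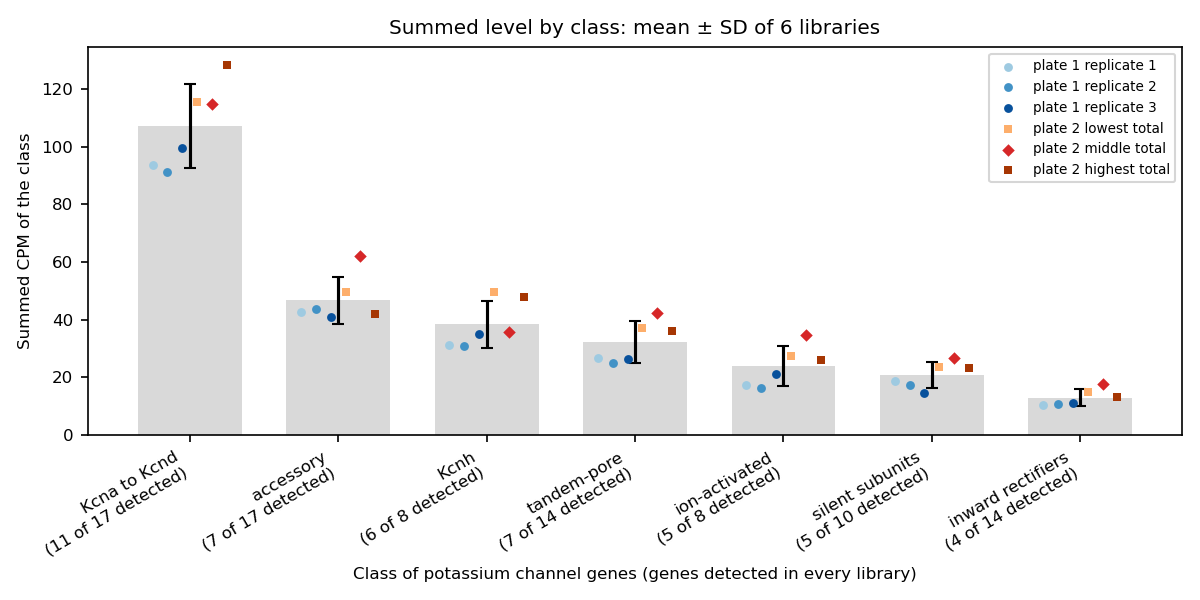
Summed CPM of 7 classes of potassium channel genes, as bars for the mean with the SD of 6 libraries and points for the libraries. Of the classes shown, Kcna to Kcnd genes sum highest, to 107 ± 14.6 CPM, and the inward rectifiers lowest, to 13.0 ± 2.85 CPM.

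Among the 7 classes given, which do not cover all members, the Kcna to Kcnd genes held 33.2 ± 2.28% of the summed CPM, the accessory subunits 14.5 ± 1.93%, Kcnh 11.8 ± 1.48%, the tandem-pore genes 9.87 ± 0.594%, the ion-activated genes 7.24 ± 1.00%, the silent subunits 6.34 ± 0.622% and the inward rectifiers 3.99 ± 0.335% (each SD, n = 6). As shares within a library, these do not depend on the total. The share of Kcna to Kcnd ranged from 29.6% in the middle-total library to 35.4%.

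**Figure D3:**
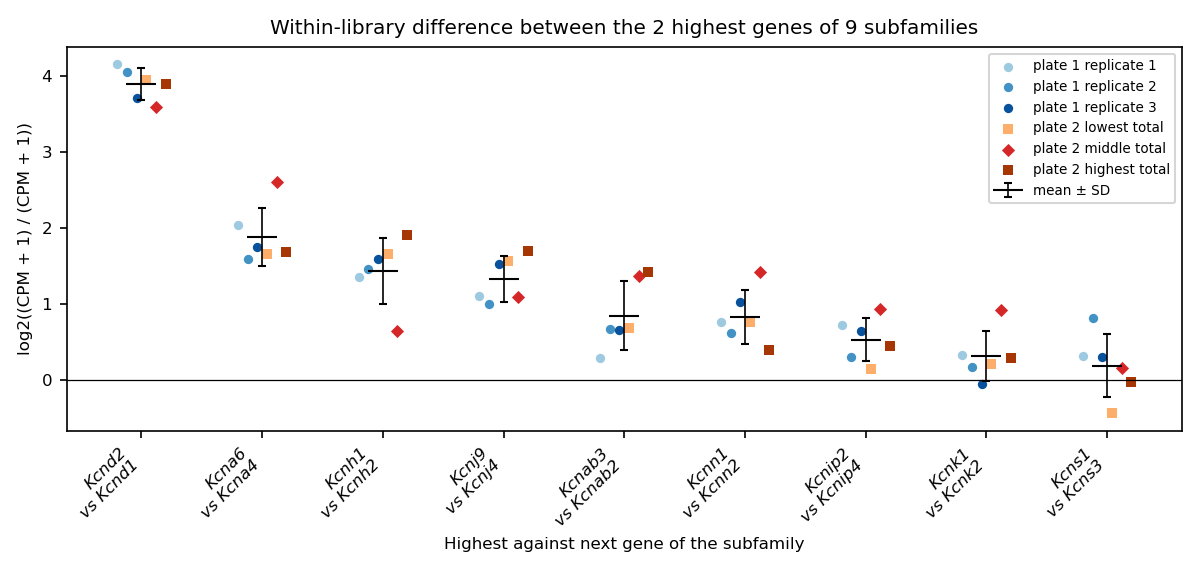
Difference between the highest and the next gene of 9 subfamilies, as log2 of the ratio of CPM + 1 within a library, with 1 point per library and the mean with its SD. In 7 subfamilies all points lie above 0, while Kcnk1 against Kcnk2 and Kcns1 against Kcns3 have points on both sides.

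Of 12 subfamilies with at least 2 detected genes 9 are given here, and in 7 of these the highest gene was above the next one in 6 of 6 libraries and passed the threshold after Benjamini-Hochberg adjustment over the 12. The genes compared were ranked on these same values, and wells of a plate share a culture, which the test does not take into account.

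Between the plates, 48 members were tested, of which 47 were detected in every library. By the quasi-likelihood test of edgeR, with p adjusted by Benjamini-Hochberg over the whole table, 0 of the 48 had an adjusted p under 0.05, against 0.185% of 15669 genes. At an unadjusted p under 0.05 there were 6 of 48 by edgeR, against 16.1% of all genes. Limma-voom called 0 members (0.191% of all genes) and DESeq2 called 1, Kcnt1 (3.70% of all genes). EdgeR without scaling beyond the total called 5 members (9.32% of all genes), and without a filter on low counts 1, Kcnt1 (2.02% of all genes). Among the 6 members were Kcnt1, Kcnq3, Kcnk1, Kcns3 and Kcnk5, each with a higher mean on plate 2.

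The log2 fold change of Kcnt1 was 0.92 ± 0.25 (standard error), with an adjusted p of 0.146 in edgeR, from 8.02 ± 2.57 CPM on plate 1 to 18.2 ± 4.58 CPM on plate 2 (each SD, n = 3). Without the middle-total library it was 0.65, with an adjusted p of 0.0483 from edgeR, where 12.0% of all genes passed. That of Kcnq3 was 0.47 ± 0.15 (standard error), with an adjusted p of 0.181 in edgeR, and 0.56 with an adjusted p of 0.00739 from edgeR without the middle-total library. For Kcnk1 it was 0.55 (standard error 0.20, adjusted p = 0.221 from edgeR), and 0.31 with an adjusted p of 0.202 from edgeR without the middle-total library. Kcns3 and Kcnk5, both with a log2 fold change of 1.21, rested on as few as 5 and 4 counts in a library. Their values were 0.86 and 0.81 without plate 1 replicate 2, and 1.91 and 1.72 without plate 1 replicate 1. For Kcnc1 and Kcnma1 the values were -0.03 and -0.05, with standard errors of 0.16 and 0.18.

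**Figure D4:**
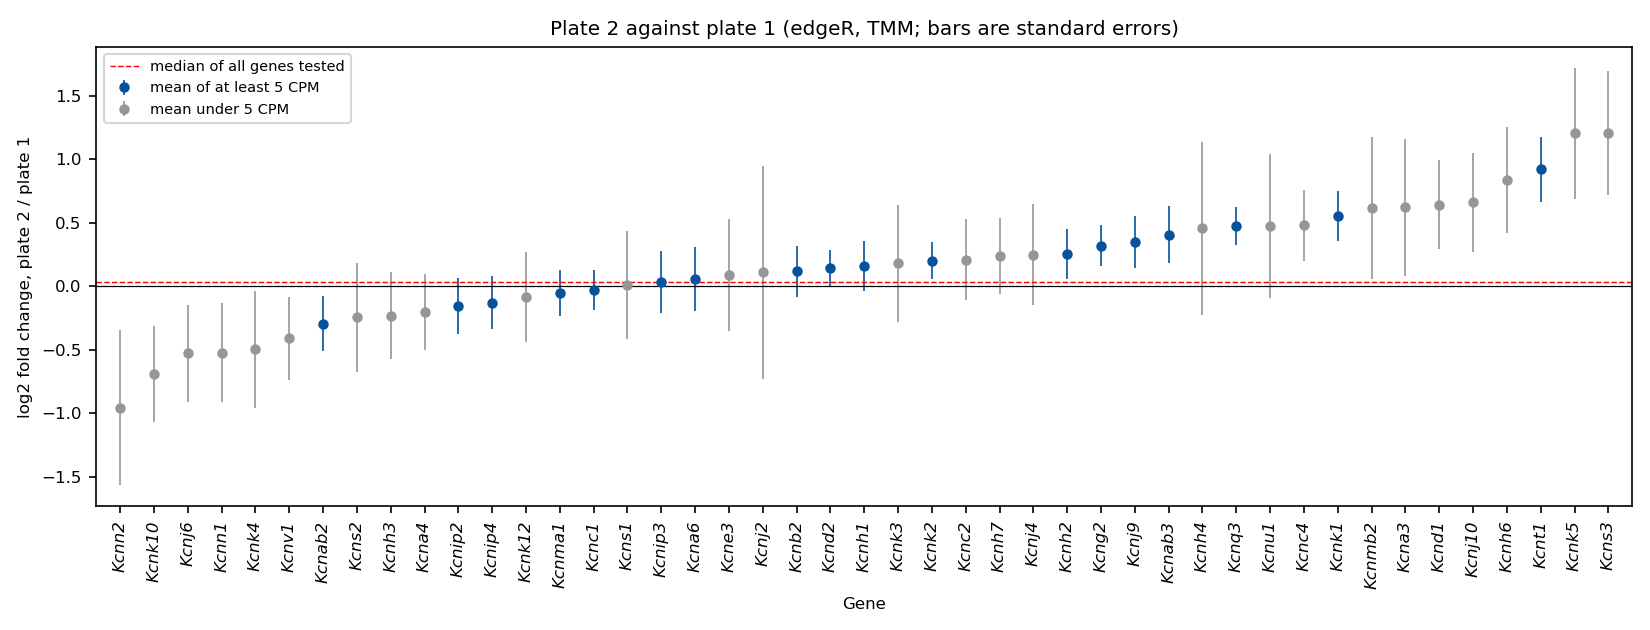
Log2 fold change of plate 2 against plate 1 with its standard error for 45 of the potassium channel genes tested, from edgeR with TMM scaling, with the median of all genes as a dashed line. Kcnt1, at 0.92, is the highest of the genes with at least 5 CPM, and none of these genes passed the adjusted threshold.

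A positive log2 fold change was found for 31 of the 48 members (64.6%), against 54.1% of all genes tested, with medians of 0.15 and 0.03. With 1 library left out at a time, the share of members lay between 54.2% (without the middle-total library, against 51.0% of all genes) and 70.2% (without the highest-total library of plate 2, against 51.7%). In CPM, 19 of the 48 members were higher in every plate 2 library than in any plate 1 library, against 35.2% of all genes, and 23 were so without the middle-total library, against 52.7%. With TMM scaling, 10 members were higher without overlap, against 12.8% of all genes, and 0 were lower without overlap, against 12.0%. Of 24 partner genes of potassium channels (regulatory subunits, anchors, calmodulin and Hcn channels), 21 were detected and tested and 0 passed the threshold by edgeR.

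**Figure D5:**
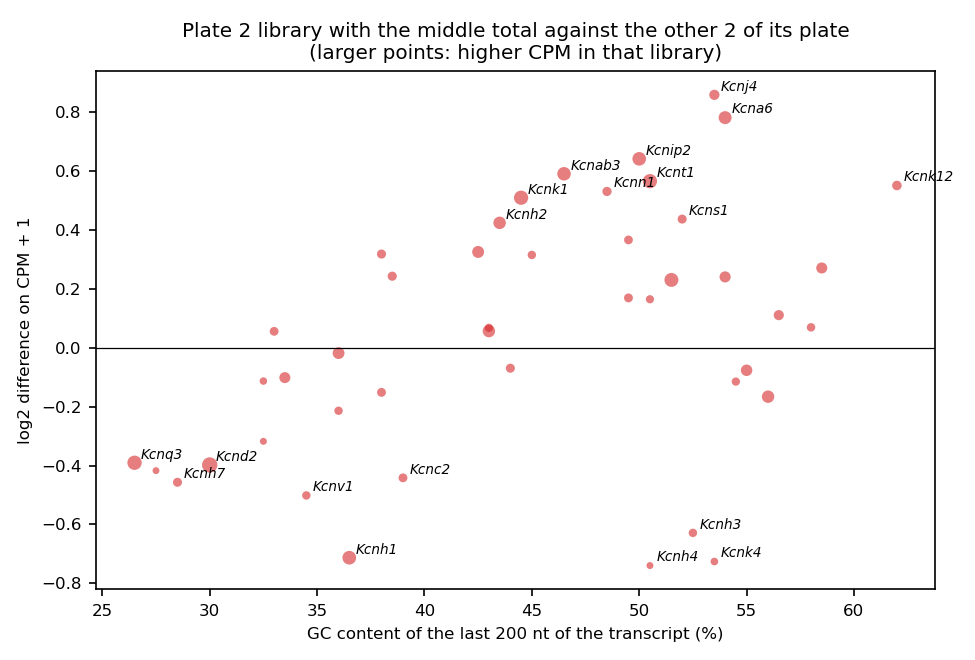
Log2 difference of CPM + 1 between the middle-total library and the mean of the other libraries of plate 2, against GC content at the transcript end (200 nt), for 45 detected potassium channel genes. Kcnj4 and Kcna6 lie highest, at 0.86 and 0.78, and Kcnh1 lies at -0.71.

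The middle-total library held the highest value of the 6 for 19 of the 48 detected members (39.6%), against 33.8% of all detected genes, and the lowest value for 7, against 19.7% of all detected genes. Relative to the other libraries of its plate, Kcnj4, Kcna6, Kcnip2, Kcnab3 and Kcnt1 were highest there, by 0.57 to 0.86 on the log2 scale of CPM + 1, while Kcnh1, Kcnk4 and Kcnh4 were lowest, by -0.71 to -0.74. Among the 48 members Spearman's rho between this difference and GC content over the final 200 nt was 0.413, against 0.514 over 12693 genes. These are descriptions across genes that share the same libraries. Kcna6 and Kcnj4 have transcript ends of 54.0% and 53.5% GC, and Kcnq3 and Kcnd2, which were lower in this library than in the others of its plate, of 26.5% and 30% GC. Other members went the other way, since Kcnk4, Kcnh4 and Kcnh3 were among the lowest in this library with 53.5%, 50.5% and 52.5% GC. The part of GC content in these values was not tested.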

How the data were processed

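The authors trimmed the reads (Trim Galore 0.6.4 per the labels), assigned them with Salmon 1.5.1 to transcripts of GENCODE release M23 on GRCm38 with no correction for length, and used Tximeta to obtain gene sums. The table they deposited holds expected counts of 54281 genes, not normalized. Members were found by symbol in GENCODE release M21 on the same build, in which 54107 gene identifiers matched after the version was removed. Some genes, among them 1 of the Kcnj group that enters no sum, are not reported here, nor are 5 non-coding genes with a Kcn symbol.

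CPM was the unrounded expected count over the library total, which lay between 21399987 and 36488198. A floor of 3 counts stood for 0.0822 to 0.140 CPM and covers counting error only. Counts were rounded for edgeR 4.0.16 (quasi-likelihood test with robust fit, TMM factors, 15669 genes kept by filterByExpr, standard error from the F statistic), limma 3.58.1 and DESeq2 1.42.0 in R 4.3.3. Differences within a library were taken as log2 of CPM + 1. They were tested by exact permutation (sign flips, two-sided) with Benjamini-Hochberg adjustment over 12 subfamilies. Coding sequences were taken from the transcript with the longest complete coding sequence, and GC content from its last 200 nt. Python 3.11.15, numpy 2.4.6 and pandas 2.3.3 were used. The plate test was tested on simulated data.

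Genes were named if their mean was at least 5 CPM, if they were the highest or the compared next gene of a subfamily, or if they passed the plate threshold. Others (Kcnj2 and those counted beside a subfamily) were chosen after their values were seen, and so was the count of genes whose plates do not overlap. The members and gene lists were chosen with earlier results of these data known. The secretion, siRNA and western blot experiments were not analysed here.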

Additional observations from a re-analysis of the deposited data

Results flagged for a closer look

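Among 45 potassium channel genes with a mean of at least 10 counts, 3 had 1 library far from the other 5, judged by its gap to the nearest library over the whole range against the critical value of Dixon's test at 95% for 6 libraries. Chance gives about 1 in 20 for libraries drawn alike, which wells of different plates are not, and 3 of 45 is near that share. The same count over all genes is not given here. The middle-total library of plate 2 held the highest value for 33.8% of all detected genes. Kcna6 reached 14.8 CPM in the middle-total library of plate 2, while the other 5 lay between 7.82 and 9.11 CPM (ratio 0.816). Kcnj4 reached 4.04 CPM in the same library, with the others between 1.43 and 2.14 CPM (ratio 0.728). Kcnk10 reached 2.57 CPM in replicate 3 of plate 1, with the others between 1.04 and 1.46 CPM (ratio 0.723), and its mean of 1.47 CPM is 1.25 CPM without that library.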

How the results depend on the processing

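The mean of each of the 18 genes given with at least 5 CPM stayed within 1 SD with TMM factors, with size factors from DESeq2 and with mitochondrial genes left out of the total. This was nearly fixed in advance, since these settings rescale whole libraries and change their average size little. Of the 93 members, 31 had at least 1 CPM in every library, against 48 with more than 3 counts. The 9 differences given between leading genes kept their side of the threshold with pseudocounts of 0.1 and 5 CPM and with TMM, which their construction nearly fixes, since these change no order within a library, and with 5 libraries the test cannot go below 0.0625. Their sizes moved by over 1.5 times with 5 CPM for Kcna6 against Kcna4 (1.07) and Kcnj9 against Kcnj4 (0.72), and with 0.1 and 5 CPM for Kcnn1 against Kcnn2 (1.65 and 0.27) and Kcns1 against Kcns3 (0.43 and 0.05). Between the plates, the number of genes called was 29 by edgeR, 579 by DESeq2, 1461 without scaling beyond the total and 545 without a filter. For potassium channel genes these numbers were 0, 1, 5 and 1: Kcnt1 in each of the latter 3 settings, and without scaling also Kcnq3, Kcnk1 and Kcng2, among others. Omitting 1 library gave from 0 genes (without plate 1 replicate 1, or without the lowest-total library of plate 2) through 2, 6 and 9 (without plate 1 replicate 2, plate 1 replicate 3 and the highest-total library of plate 2) to 1911 (without the middle-total library of plate 2), and from 0 to 2 potassium channel genes, the 2 being Kcnq3 and Kcnt1 in the last case. The cause was not tested. No paired analysis was possible because the sample labels give the wells of the plates different numbers, and the numbers in the plate 2 column headers, which start again at 1, could not be tied to those labels and were not used as pairs.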
